A study of Rattus norvegicus with 16 samples.

Results

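The genes described here act where glucose and fructose enter the liver cell and where newly made glucose is released from it. They were chosen by symbol, and of the 8 symbols listed, 7 (Slc2a2, Gckr, Khk, Pfkfb1, Fbp1, Pck1 and G6pc) were rows of the deposited table of 9645 genes. Pklr was not analysed here. The livers came from SPI-fed rats, whose dietary protein was soy protein isolate with high isoflavones, and from CAS-fed rats, whose dietary protein was casein, the control. All were male obese Zucker rats, which lack a working leptin receptor, bought at 6 weeks old, given 1 week to settle and then fed their diet freely for 16 weeks. There were 8 rats per diet and 1 library per rat, called SPI 1 to SPI 8 and CAS 1 to CAS 8 after the numbers in the labels. Both diets were fed to obese rats, no lean rats were in the series, and whether the rats were fasted before the livers were taken is not given in the sources used here, which bears on genes that respond to meals.

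The liver takes up glucose and fructose after a meal, mainly through the transporter GLUT2, and releases glucose during a fast. Glycolysis and gluconeogenesis run over many of the same enzymes and are set against each other at a few steps, where glucose is phosphorylated or dephosphorylated, where fructose 6-phosphate and fructose 1,6-bisphosphate are interconverted, and where phosphoenolpyruvate is made or used. Fructose enters below the main control of glycolysis, because ketohexokinase phosphorylates it directly, and in obese rats it is a ready source of carbon for liver fat.

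The promoter windows of Pck1, G6pc and Slc2a2 are printed. The first 2 are the classic fasting-induced genes of gluconeogenesis, and the third had the smallest p of the 7 genes on quantile-normalized values. Each window runs from 250 bases before to 50 bases after the annotated start, 5′ to 3′ on the gene's strand, as RefSeq gives it on GRCr8, and all 7 genes were matched (G6pc under its current symbol G6pc1). They lie at chr3:182348322-182348621 (Pck1), chr10:86807409-86807708 (G6pc) and chr2:113540120-113540419 (Slc2a2), all on the plus strand. Capitals mark exact matches, on either strand, to the motifs that were searched.
Pck1: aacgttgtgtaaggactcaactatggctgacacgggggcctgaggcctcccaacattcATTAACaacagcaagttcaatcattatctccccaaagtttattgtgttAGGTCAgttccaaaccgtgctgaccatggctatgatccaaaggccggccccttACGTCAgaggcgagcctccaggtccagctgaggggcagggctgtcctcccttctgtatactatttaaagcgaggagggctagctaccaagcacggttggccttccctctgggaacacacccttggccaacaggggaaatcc
G6pc: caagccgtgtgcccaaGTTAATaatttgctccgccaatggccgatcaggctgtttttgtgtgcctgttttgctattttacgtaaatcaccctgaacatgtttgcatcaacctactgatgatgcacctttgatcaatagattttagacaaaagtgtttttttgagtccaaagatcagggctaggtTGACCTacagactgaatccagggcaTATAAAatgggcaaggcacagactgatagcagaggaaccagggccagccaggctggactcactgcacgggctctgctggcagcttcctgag
Slc2a2: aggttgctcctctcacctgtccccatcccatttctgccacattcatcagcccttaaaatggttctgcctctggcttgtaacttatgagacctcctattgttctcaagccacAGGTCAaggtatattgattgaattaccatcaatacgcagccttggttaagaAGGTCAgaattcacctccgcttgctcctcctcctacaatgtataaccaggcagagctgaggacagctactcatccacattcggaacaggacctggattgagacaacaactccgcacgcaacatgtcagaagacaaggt
The nuclear receptor motif AGGTCA stood in 4 of the 7 windows. It lay at -144 in Pck1, at -66 in G6pc (on the other strand, printed as TGACCT) and at -139 and -88 in Slc2a2. In Gckr it lay at -176, also on the other strand. It was present in 15.7% of 27457 windows of the same length. The HNF1 motif GTTAAT, of a liver transcription factor, stood at -192 in Pck1 (on the other strand, printed as ATTAAC) and at -234 in G6pc, and in 7.37% of all windows. TATAAA, the TATA box, was found at -41 in G6pc alone among the 7, and in 14.3% of all windows. The letters ACGTCA are the cAMP response element without its first letters, TG, and were searched only after the windows had been read. They stood at -91 in Pck1 and in 8.22% of all windows. The full cAMP response element TGACGTCA (1.91% of all windows), the E-box CACGTG (6.65%), the forkhead core TGTTTAC (3.76%) and the insulin response core AAAACAA (8.82%) matched in 0 of the 7 windows, and the windows of Fbp1, Khk and Pfkfb1 held no match to any motif. A match is a description of letters and not a site of binding.

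The libraries held 14901365 to 21517766 reads in SPI-fed rats and 17602306 to 21632979 reads in CAS-fed rats. Values are normalized counts, the reads of a gene divided by a size factor for the library. Differences are given as the log2FC, the log2 of the fold of SPI over CAS on quantile-normalized values, with its standard error (SE). They were tested with limma over 8004 genes, and a gene was called at an adjusted p under 0.05, which 158 genes passed upward in SPI-fed rats and 232 downward. Of the hepatocyte markers 6 of 10 were in the table and 0 were called, although 2 of them, Alb and Tf, are so abundant that quantile normalization gave each the same value in every library and left nothing to test. Their summed normalized count, with these 2 included, was 4813000 to 6873000 in SPI-fed rats and 4520000 to 6648000 in CAS-fed rats. Of the Kupffer, endothelial, stellate, cholangiocyte and erythroid markers tested, 0 were called. All 5 stellate markers had a negative log2FC (median -0.76), and their summed normalized count was 3169 to 5629 in SPI-fed rats and 3739 to 5900 in CAS-fed rats. Whether their level had a part in the results below was not tested.

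On quantile-normalized values, none of the 7 glucose and fructose genes was called in either direction, against 4.87% of all genes tested. At an unadjusted p under 0.05, Khk was higher and Slc2a2 was lower in SPI-fed rats, 2 of the 7 genes against 18.8% of all genes tested. At the cutoff of the study, which adds a fold above 1.3 to that p, 0 of the 7 passed, against 12.7% of all genes. In 0 of the 7 did the livers of the diets fail to overlap, against 0.900% of all genes. The median log2FC of the 7 was 0.09, that of all genes tested was 0.01, and 4 of the 7 were positive. With all 16 livers and without quantile normalization, Fbp1 was called higher, as given below. The genes differed in the spread between rats of the same diet. The coefficient of variation of Fbp1 was 11.0% in SPI-fed rats and 14.4% in CAS-fed rats, that of Pfkfb1 was 47.8% in SPI-fed rats and 34.1% in CAS-fed rats, and that of Gckr was 21.0% in SPI-fed rats and 33.6% in CAS-fed rats. G6pc had 50.3% in SPI-fed rats and 18.3% in CAS-fed rats. In a whole liver sample, fewer cells of a type and less RNA per cell cannot be told apart.

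**Figure D1:**
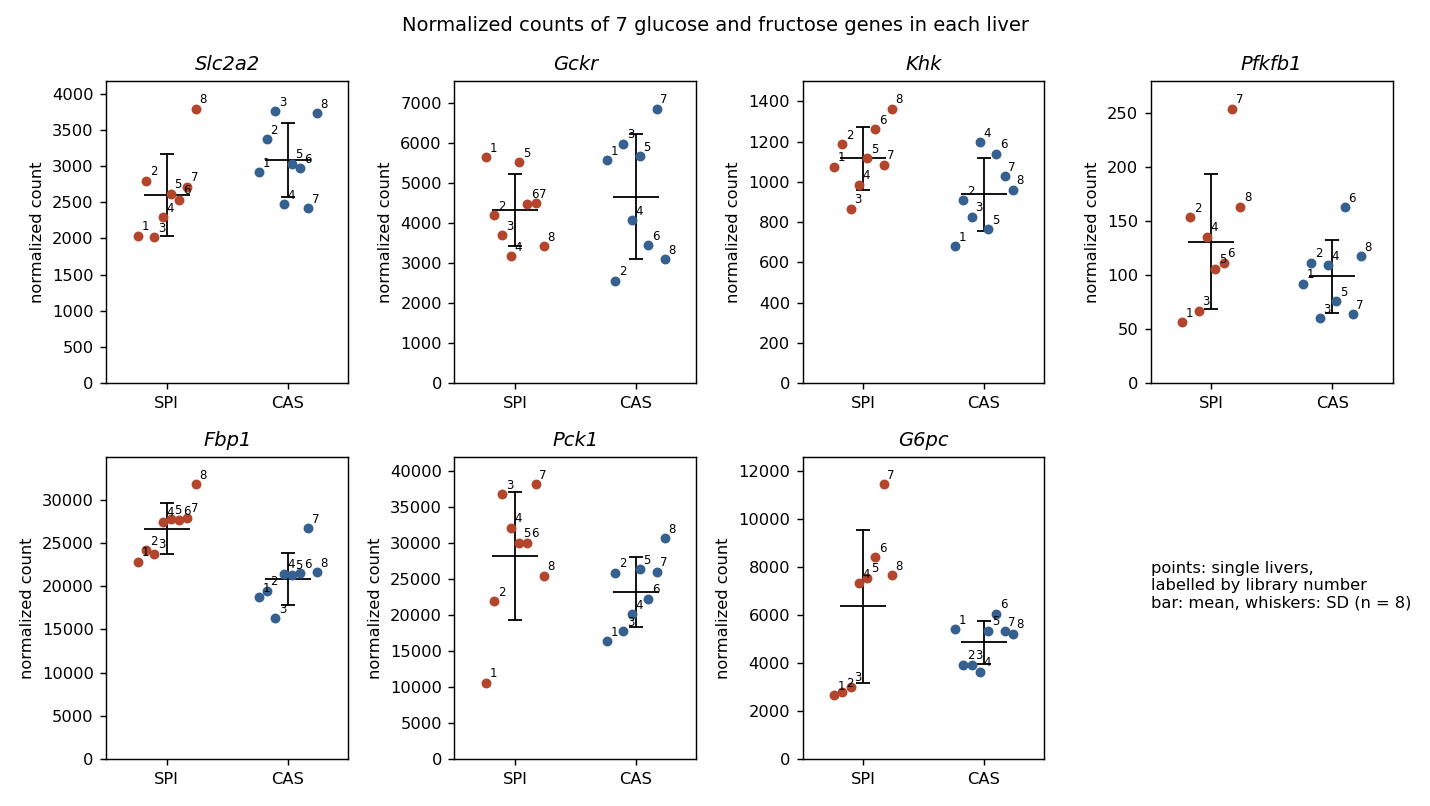
Normalized count of each of the 7 genes (linear axis from 0) in the 8 livers of SPI-fed rats and the 8 livers of CAS-fed rats, with points numbered by library, a bar at the mean and whiskers for the SD (n = 8). All 8 SPI livers lie above the CAS median of 21370 for Fbp1, and the SPI livers split into 3 low and 5 high for G6pc.

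Slc2a2 encodes GLUT2, the low-affinity transporter that carries glucose and fructose across the membrane of the hepatocyte in both directions. Its normalized count was lowest at 2018, had a median of 2577 and was highest at 3796 in SPI-fed rats, and was lowest at 2416, had a median of 3001 and was highest at 3759 in CAS-fed rats. In 7 of 8 SPI livers it lay below the CAS median and in 3 below every CAS liver, but SPI 8 held the highest value of all 16. The mean was 2602 ± 564.6 in SPI-fed rats and 3084 ± 509.7 in CAS-fed rats (SD, n = 8 each). The log2FC was -0.35 (SE 0.12, 95% interval -0.60 to -0.11, unadjusted p = 0.00578, adjusted p = 0.0825 from limma). The gene was called when SPI 8 was left out (-0.42, adjusted p = 0.0375 from limma), when CAS 4 was (-0.40, adjusted p = 0.0393) and when CAS 7 was (-0.41, adjusted p = 0.0398), and in none of the other 13 fits that left out a library. On the deposited scale, without quantile normalization, the log2FC was -0.25 (adjusted p = 0.243 from limma).

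Gckr encodes a regulatory protein of the hepatocyte that restrains the trapping of glucose in the fasted state and loosens its hold when fructose 1-phosphate rises. The SPI livers held a lowest normalized count of 3166, a median of 4342 and a highest of 5636, and the CAS livers a lowest of 2558, a median of 4816 and a highest of 6859. The range of the SPI livers lay wholly inside that of the CAS livers, where the highest value was 2.68 times the lowest, against 1.78 times among the SPI livers. A log2FC of -0.16 (SE 0.21, 95% interval -0.60 to 0.28, adjusted p = 0.727 from limma) was found for Gckr.

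Khk encodes ketohexokinase, which phosphorylates fructose to fructose 1-phosphate in the first step of its breakdown. Its normalized count was lowest at 865.5, had a median of 1101 and was highest at 1364 in SPI-fed rats, and was lowest at 678.9, had a median of 934.9 and was highest at 1198 in CAS-fed rats. In 7 of 8 SPI livers it lay above the CAS median, and in SPI 6 and SPI 8 above every CAS liver. The mean was 1117 ± 155.7 in SPI-fed rats and 938 ± 180.1 in CAS-fed rats (SD, n = 8 each). For Khk the log2FC was 0.25 (SE 0.11, 95% interval 0.02 to 0.49, unadjusted p = 0.0373, adjusted p = 0.230 from limma). It stayed positive, between 0.19 and 0.31, when each library was left out, and was called in 0 of 16 such fits.

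Within the CAS-fed rats, CAS 4 and CAS 7 were high in Khk and low in Slc2a2. Over the 8 CAS livers the r of the 2 genes was -0.43 (exact permutation p = 0.288). CAS 4, CAS 6 and CAS 7 held the 3 highest Khk values of that diet (1198, 1140 and 1028), and CAS 7 and CAS 4 its 2 lowest Slc2a2 values (2416 and 2474). CAS 6 had a Slc2a2 value of 2967, and CAS 1, with the lowest Khk of the diet (678.9), had 2913. CAS 4, CAS 6 and CAS 7 also had the 3 lowest counts of Lbp in that diet. Lbp encodes a secreted protein that binds bacterial lipopolysaccharide and belongs to the acute phase response. Lbp was called lower in SPI-fed rats, with normalized counts of 1942 to 3387 in SPI-fed rats, against 2494, 2572 and 2476 in CAS 4, CAS 6 and CAS 7 and 5346 to 9302 in the other CAS livers (log2FC -1.23, adjusted p = 0.0429 from limma). Of the 9 acute phase genes tested, Lbp alone was called, and 6 had a negative and 3 a positive log2FC. Lcn2 had a log2FC of -2.33 (adjusted p = 0.0731 from limma) and 50.03 to 369.6 in SPI-fed rats. In CAS 4, CAS 6 and CAS 7 it had 137.1, 131.8 and 109.8, against 536.9 to 2147 in the other CAS livers. The summed normalized count of the 9 was 454200 to 719000 in SPI-fed rats and 450800 to 590900 in CAS-fed rats, most of it from Hp. The part of these genes in the values of Khk and Slc2a2 was not tested.

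Ratios of 2 genes within a liver are given on the log2 scale, without a test, from the deposited values. They do not depend on the size factor of a library, but quantile normalization would change them. They do not compare amounts of transcript between genes, since the genes differ in length. Khk over Slc2a2, a ratio chosen after the values of both were seen, was -1.21 ± 0.172 in SPI-fed rats and -1.72 ± 0.435 in CAS-fed rats (SD, n = 8 each). The SPI livers lay close together, from -1.48 to -0.92, and the CAS livers spread from -2.19 to -1.05. CAS 4, CAS 6 and CAS 7, at -1.05, -1.38 and -1.23, lay among the SPI livers. The other 5 CAS livers lay below all 8 SPI livers. CAS 4, CAS 6 and CAS 7 had been picked out above by their high Khk counts, and CAS 4 and CAS 7 also by low Slc2a2 counts. The ratio uses the same counts, so its high values in CAS 4, CAS 6 and CAS 7 are not a separate result.

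**Figure D2:**
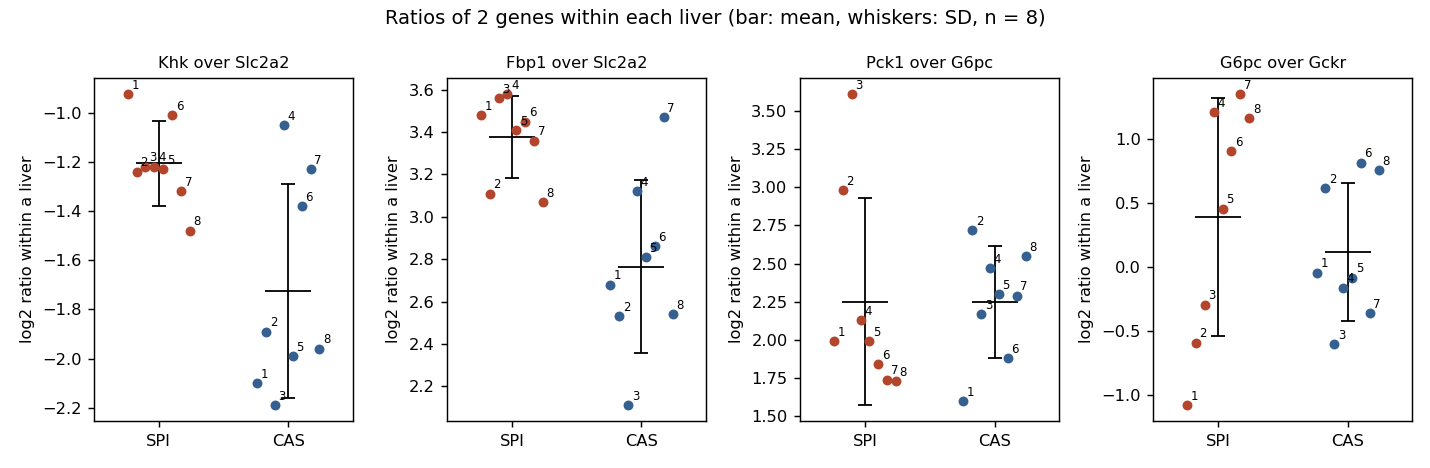
Log2 ratio of 2 genes within each liver (linear axis in log2 units that does not start at 0) for SPI-fed rats and CAS-fed rats, with points numbered by library, a bar at the mean and whiskers for the SD (n = 8). Khk over Slc2a2 and Fbp1 over Slc2a2 averaged -1.21 and 3.38 in SPI-fed rats, against -1.72 and 2.76 in CAS-fed rats, while Pck1 over G6pc averaged 2.25 in both.

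Pfkfb1 encodes the liver form of the enzyme that makes and breaks fructose 2,6-bisphosphate, the signal that turns phosphofructokinase on and fructose 1,6-bisphosphatase off. Normalized counts ran from 56.2 over a median of 123.6 to 254.2 in SPI-fed rats, and from 60.3 over a median of 100.7 to 162.7 in CAS-fed rats. SPI 7 and SPI 8 lay above every CAS liver and SPI 1 lay below every one, so the diets overlapped throughout. This was the least abundant of the 7 in reads, with 44 in SPI 1 at the lowest. The diets differed by a log2FC of 0.35 (SE 0.27, 95% interval -0.20 to 0.91, adjusted p = 0.508 from limma). Pfkfb2, a second gene of the same enzyme family, had a log2FC of 0.30 (SE 0.17, adjusted p = 0.332 from limma).

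Fbp1 encodes fructose 1,6-bisphosphatase, which removes a phosphate in the step of gluconeogenesis that opposes phosphofructokinase. Its normalized count was lowest at 22810, had a median of 27550 and was highest at 31800 in SPI-fed rats, and was lowest at 16270, had a median of 21370 and was highest at 26710 in CAS-fed rats. All 8 SPI livers lay above the CAS median and 5 lay above every CAS liver, and CAS 7 alone among the CAS livers reached the range of the SPI livers. The mean was 26660 ± 2935 in SPI-fed rats and 20880 ± 3008 in CAS-fed rats (SD, n = 8 each), a ratio of 1.28. Fbp1 over Slc2a2 within a liver, a ratio also chosen after the values were seen, was 3.38 ± 0.192 in SPI-fed rats and 2.76 ± 0.408 in CAS-fed rats (log2, SD, n = 8 each).

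The call for Fbp1 depended on the scaling. On quantile-normalized values its log2FC was 0.11 (SE 0.08, 95% interval -0.06 to 0.29, adjusted p = 0.490 from limma), and it was not called. On the deposited scale it was 0.36 (SE 0.09, adjusted p = 0.0226 from limma), with upper-quartile scaling 0.38 (adjusted p = 0.0154 from limma), with edgeR 0.36 (adjusted p = 0.0255) and with DESeq2 0.35 (adjusted p = 0.00938), and in these 4 fits Fbp1 was called higher. Quantile normalization gives every library the same set of values. The 100 most abundant of the genes tested, which include Fbp1 and Pck1, had a median log2FC of -0.02 after it and 0.18 on the deposited scale, whereas the median over all genes was near 0 on both. On the deposited scale, in fits added after seeing the data, Fbp1 was called in 15 of the 16 that left out a library. The exception was the fit without SPI 8 (adjusted p = 0.0510 from limma). With libraries 2 and 8 of each diet left out, the log2FC was 0.33 (adjusted p = 0.121 from limma). In both diets the lane code differs from the library number for number 2, which carries code 7, and not for number 8.

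**Figure D3:**
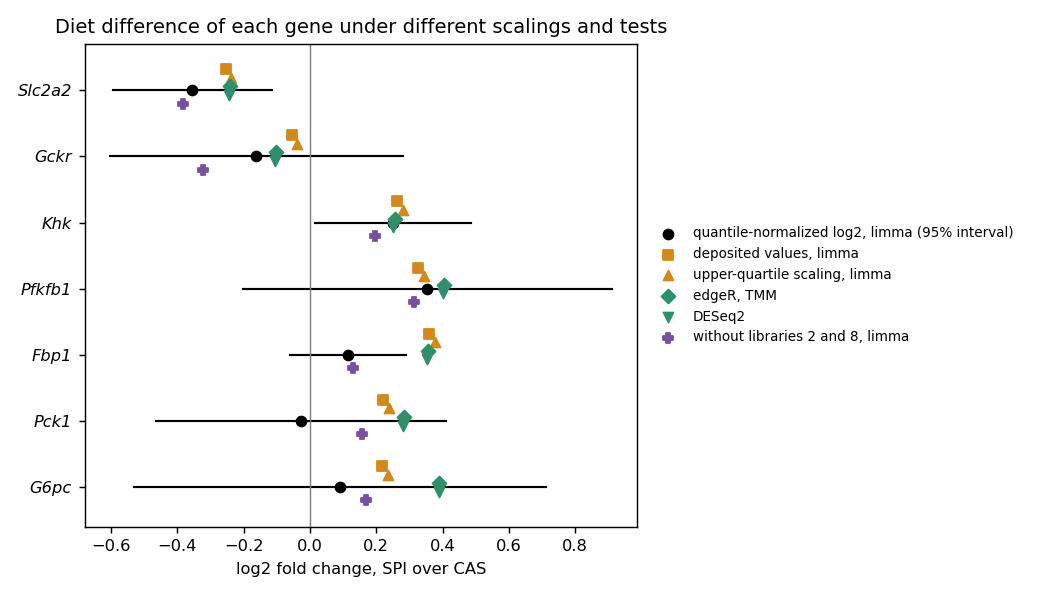
The log2FC of SPI over CAS for each of the 7 genes, on quantile-normalized values with its 95% interval (black) and under 5 other scalings, tests or choices of libraries (coloured symbols). The symbols of Fbp1 split into 0.11 and 0.13 on quantile-normalized values, with all livers and without libraries 2 and 8, and 0.35 to 0.38 under the other scalings, those of Pck1 lie on both sides of 0, and those of Slc2a2, Gckr, Khk, Pfkfb1 and G6pc each keep to a single side.

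Pck1 encodes the cytosolic phosphoenolpyruvate carboxykinase, which commits carbon from oxaloacetate to gluconeogenesis and to glycerol for fat. Among SPI-fed rats the normalized count was lowest at 10600, had a median of 30070 and was highest at 38200, and among CAS-fed rats it was lowest at 16380, had a median of 24090 and was highest at 30660. SPI 3, SPI 4 and SPI 7 lay above every CAS liver, and SPI 1 below every one. Between the diets the log2FC was -0.03 (SE 0.21, 95% interval -0.47 to 0.41, adjusted p = 0.960 from limma), and the direction turned with the scaling and with the libraries used. It was 0.22 on the deposited scale and 0.28 with DESeq2 (adjusted p = 0.632 from limma and 0.421 from DESeq2), and 0.14 on quantile-normalized values without SPI 1 (adjusted p = 0.643 from limma). No direction is given for Pck1.

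G6pc encodes the catalytic subunit of glucose 6-phosphatase, which frees glucose for release in the last step shared by gluconeogenesis and glycogen breakdown. Its normalized counts were 2667, 2787, 3013, 7321, 7553, 8396, 11450 and 7656 in SPI 1 to SPI 8, against 5395, 3920, 3933, 3639, 5340, 6047, 5332 and 5222 in CAS 1 to CAS 8. SPI 1, SPI 2 and SPI 3 lay below every CAS liver and the other 5 SPI livers lay above every CAS liver, so that no SPI liver had a value within the CAS range. The mean was 6355 ± 3199 in SPI-fed rats and 4853 ± 887.2 in CAS-fed rats (SD, n = 8 each). The coefficient of variation was 50.3% in SPI-fed rats and 18.3% in CAS-fed rats, and the highest liver had 4.29 times the count of the lowest in SPI-fed rats and 1.66 times in CAS-fed rats. The difference in spread was not tested. The log2FC was 0.09 (SE 0.29, 95% interval -0.53 to 0.71, adjusted p = 0.904 from limma), and it turned to -0.05 without SPI 7.

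The 3 SPI livers low in G6pc differed from the other 5 in some of the 7 genes and not in others. SPI 1, SPI 2 and SPI 3 also had the 3 lowest Fbp1 counts of their diet, 22810, 24180 and 23740. In Pck1 they were split, since SPI 1 and SPI 2 had the 2 lowest counts of their diet, 10600 and 21960, and SPI 3 the second highest, 36840. The libraries of SPI 2 and SPI 7 carry the same lane code and had G6pc counts of 2787 and 11450. The total reads of SPI 1, SPI 2 and SPI 3 were 14920746, 16677237 and 21517766, in a range of 14901365 to 21517766 for the diet. The part of lane and depth in the split was not tested. Pck1 over G6pc within a liver was 2.25 ± 0.679 in SPI-fed rats and 2.25 ± 0.365 in CAS-fed rats (log2, SD, n = 8 each), with SPI 3 and SPI 2 the highest of all 16 livers at 3.61 and 2.98. G6pc over Gckr was 0.39 ± 0.929 in SPI-fed rats and 0.12 ± 0.539 in CAS-fed rats (log2, SD, n = 8 each). Fbp1 over Pfkl, the liver phosphofructokinase, rests on few reads of Pfkl, which was listed at 0 in CAS 3, and was 9.27 to 14.5 in the 8 SPI livers and 9.45 to 10.5 in the other 7 CAS livers.

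Genes of gluconeogenesis are known to be more abundant in periportal than in pericentral hepatocytes. Of 7 periportal genes tested, Hal was called higher and Cdh1, Arg1 and Aldh1b1 were called lower, where 4.87% of all genes tested were called. Arg1, like Fbp1 an abundant gene, had a log2FC of -0.34 on quantile-normalized values, but its deposited values were nearly the same, 37490 ± 4932 in SPI-fed rats and 38480 ± 6323 in CAS-fed rats (SD, n = 8 each). The summed normalized count of the 7 was 45670 to 65800 in SPI-fed rats and 37630 to 61400 in CAS-fed rats, most of it from Arg1. Of 7 pericentral genes tested, Cyp1a2 and Cyp7a1 were called higher. The sum was 46250 to 123800 in SPI-fed rats and 34610 to 71180 in CAS-fed rats, most of it from Cyp2e1. The part of these levels in the values of Fbp1, Pck1 and G6pc was not tested.

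**Figure D4:**
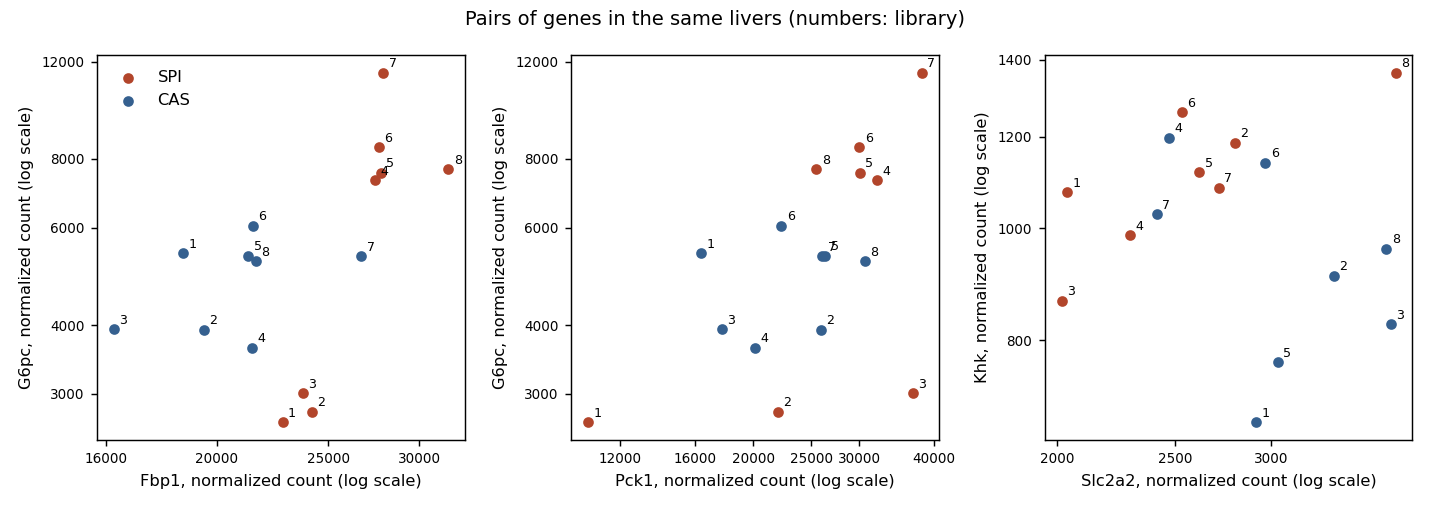
Normalized counts of G6pc against Fbp1, G6pc against Pck1 and Khk against Slc2a2 (log axes), with SPI livers in red and CAS livers in blue, numbered by library. SPI 1, SPI 2 and SPI 3 sit low on G6pc, at 2667 to 3013, apart from the other SPI livers at 7321 to 11450, and for Khk against Slc2a2 the r was 0.835 among the SPI livers and -0.43 among the CAS livers, a difference that was not tested.

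Relations between the genes were computed over 21 pairs, after removal of the diet means, and 0 passed the adjustment over the pairs, the smallest adjusted permutation p being 0.0815. The exact permutation p-values within a diet were not adjusted for the number of pairs. All values of a liver share its library and its scaling. Because the SPI livers fell into separate groups in G6pc, no relation of G6pc is given over them. Among the 8 CAS livers Pearson's r was 0.394 between G6pc and Fbp1 (exact permutation p = 0.35) and 0.194 between Pck1 and G6pc (exact permutation p = 0.63). Gckr and Pfkfb1, the genes of the 2 control proteins, ran in opposite directions over the 16 livers (r = -0.56, permutation p = 0.0173, adjusted p = 0.182 by permutation). Spearman's rho for them was -0.643 (permutation p = 0.0121, adjusted p = 0.254 by permutation), and r was -0.585 without CAS 2 and CAS 8, the livers farthest from the median of Gckr. Within a diet their r was -0.361 in SPI-fed rats (exact permutation p = 0.383) and -0.82 in CAS-fed rats (exact permutation p = 0.0166). Khk and Slc2a2 had an r of 0.835 in SPI-fed rats (exact permutation p = 0.0114) and -0.43 in CAS-fed rats (exact permutation p = 0.288). Over all 16 livers it was 0.093 (permutation p = 0.74) with a rho of 0.238 (permutation p = 0.398), and 0.311 without CAS 1 and CAS 4. Among the SPI livers, SPI 8 was the highest and SPI 3 the lowest in both Khk and Slc2a2. The difference between the diets was not tested.

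The gene whose values were most like those of each of the 7, over the 16 livers after removal of the diet means, was found by Pearson's r among 8000 genes, as a description. It was Kpna6, an importin, for Slc2a2 (r = 0.849), LOC100911353 for Gckr (0.868) and Akr1e2, an aldo-keto reductase, for Khk (0.775). It was Sdha, a subunit of succinate dehydrogenase, for Pfkfb1 (0.867) and Psmd2, a subunit of the proteasome, for Pck1 (0.877). RGD1561662 was the most alike for both G6pc (0.853) and Fbp1 (0.828), and the first of these rests in part on the split of the SPI livers. Its normalized count was 481.8 to 886.2 in SPI-fed rats and 471.8 to 830.8 in CAS-fed rats. Each r was the largest of 8000 over 16 livers, so a high value was likely beforehand. Other genes came close, and for Gckr those at ranks 2 and 3 had an r of 0.859 and 0.834.

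Around the 7 genes, the wider pathways of sugar metabolism were counted from lists that include them. Of the 84 listed genes that the table held, 75 were tested, of which 2 were called higher and 1 lower in SPI-fed rats and 72 were not called, against 1.97% called higher and 2.90% called lower over all genes tested. Their median log2FC was 0.05, beside 0.01 over all genes. The genes called were Mdh1, Pck2 and Gpi, and none of them is among the 7.

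Mdh1 encodes the cytosolic malate dehydrogenase, which returns oxaloacetate to the cytosol from malate exported by mitochondria, just ahead of Pck1. Its normalized count was lowest at 676.9, had a median of 825.6 and was highest at 943.3 in SPI-fed rats, and was lowest at 452.9, had a median of 576.6 and was highest at 664.5 in CAS-fed rats, so that all 8 SPI livers lay above all 8 CAS livers. The log2FC was 0.53 (SE 0.10, adjusted p = 0.00249 from limma), and the gene was called in all 11 alternatives tried and in all 16 fits that left out a library. Pck2, the mitochondrial form of the enzyme that Pck1 encodes, was lowest at 252.1, had a median of 296.3 and was highest at 390.7 in SPI-fed rats, and was lowest at 161.7, had a median of 219.0 and was highest at 335.9 in CAS-fed rats. All 8 SPI livers lay above the CAS median, and CAS 2 and CAS 6, at 335.9 and 254.5, alone among the CAS livers reached the range of the SPI livers. The log2FC of Pck2 was 0.49 (SE 0.14, adjusted p = 0.0404 from limma). It was called in 7 of 11 alternatives and when SPI 4, SPI 5, CAS 2 or CAS 6 was left out, but not when any other library was, and not with the replicate number as a block (adjusted p = 0.0571 from limma). Gpi, which interconverts glucose 6-phosphate and fructose 6-phosphate in both pathways, was lowest at 2965, had a median of 4062 and was highest at 5354 in SPI-fed rats, and was lowest at 4000, had a median of 4818 and was highest at 8313 in CAS-fed rats. Its log2FC was -0.44 (SE 0.12, adjusted p = 0.0437 from limma), and -0.31 on the deposited scale (adjusted p = 0.180 from limma). Gpi was called in 5 of 11 alternatives, and of the fits that left out a library in those without SPI 7, SPI 8, CAS 1, CAS 6 or CAS 7. The call was lost with the block (adjusted p = 0.0615 from limma) and with libraries 2 and 8 of each diet left out (log2FC -0.26, adjusted p = 0.157 from limma).

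**Figure D5:**
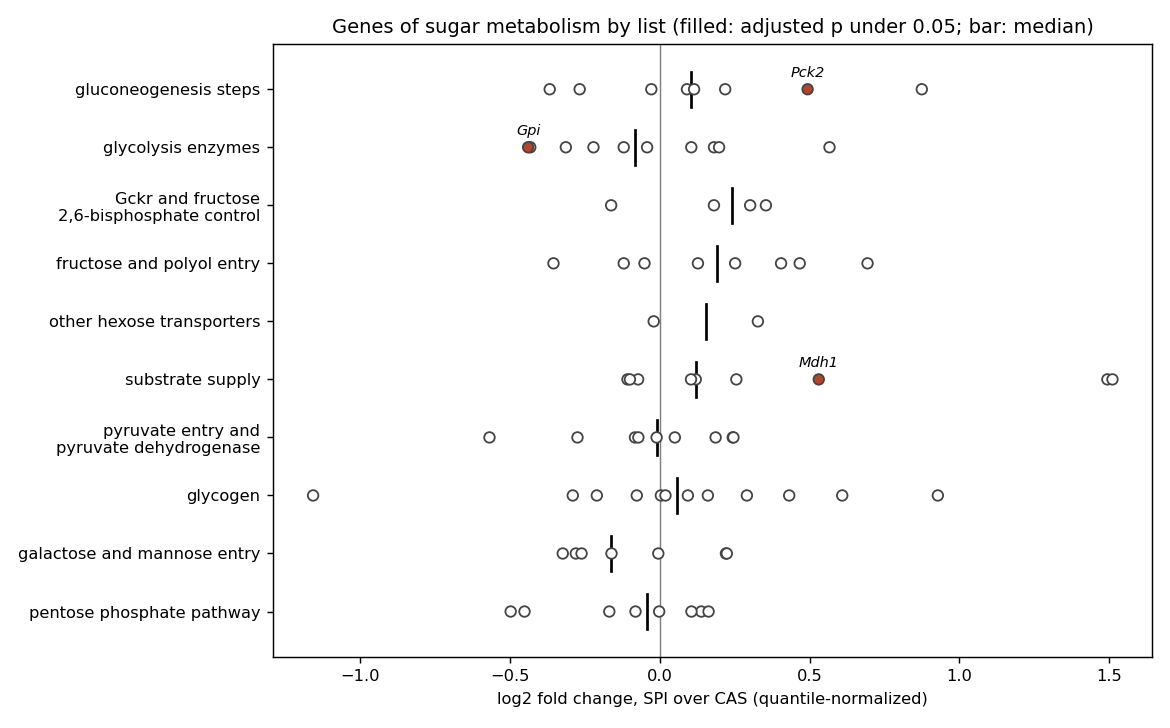
The log2FC of SPI over CAS on quantile-normalized values for each gene tested in 10 lists of sugar metabolism (circles), with filled circles for an adjusted p under 0.05 and a bar at the list's median. Filled circles stand for Pck2 (0.49), Gpi (-0.44) and Mdh1 (0.53), and the list medians lie between -0.16 and 0.24.

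In gluconeogenesis proper, 1 of 8 genes was called, Pck2, where 4.87% of all genes tested were called. Pyruvate carboxylase (Pc), the entry step, had a log2FC of -0.37 (adjusted p = 0.425 from limma). Among the suppliers of carbon from amino acids and lactate, 1 of 9 was called, Mdh1. Gpt, the alanine aminotransferase, had normalized counts of 1760 to 5762 in SPI-fed rats and 275.9 to 2708 in CAS-fed rats, and all 8 SPI livers lay above the CAS median of 1189, with a log2FC of 1.51 (SE 0.50, adjusted p = 0.108 from limma). Sds, serine dehydratase, spread from 222.4 to 2542 in SPI-fed rats and from 19.8 to 1087 in CAS-fed rats (log2FC 1.49, SE 0.85, adjusted p = 0.369 from limma). In CAS 1, CAS 2 and CAS 3 both genes were at their lowest of all 16 livers, with 296.9, 604.7 and 275.9 for Gpt and 84.3, 140.5 and 19.8 for Sds.

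Of the glycolytic enzymes 1 of 10 was called, Gpi, against 4.87% of all genes tested, and 6 of the 10 were negative. Pgam1, phosphoglycerate mutase, had a log2FC of -0.22 (adjusted p = 0.0828 from limma), and Pfkm, a phosphofructokinase better known from muscle, 0.57 (adjusted p = 0.225 from limma). For fructose and the polyols 0 of 8 were called, and beside Khk and Slc2a2 the fructose transporter Slc2a5 (GLUT5) had 977.7 to 2381 in SPI-fed rats and 782.6 to 1911 in CAS-fed rats, with a log2FC of 0.47 (SE 0.19, adjusted p = 0.185 from limma). In 7 of 8 SPI livers Slc2a5 lay above the CAS median.

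In the lists that lead away from these steps, 0 genes were called, against 4.87% of all genes tested. At the entry of pyruvate to mitochondria, Pdha1, of the pyruvate dehydrogenase complex, had a log2FC of -0.27 (adjusted p = 0.0598 from limma). It was called without SPI 7 and without CAS 7 (adjusted p = 0.0243 and 0.0427 from limma). In the other 14 fits that left out a library Pdha1 was not called. It was called in 2 of 11 alternatives, but on the deposited scale its log2FC was -0.21 (adjusted p = 0.175 from limma). In glycogen metabolism 12 genes were tested, among them Ppp1r3c, which directs a phosphatase to glycogen (0.43, adjusted p = 0.151 from limma, and 0.0259 without SPI 1), and Pygl, the liver glycogen phosphorylase (-0.21, adjusted p = 0.282). Ppp1r3c was not called in the other 15 fits that left out a library, nor on the deposited scale (0.48, adjusted p = 0.0968 from limma). In galactose and mannose entry 5 of 7 genes were negative, and galactokinase, Galk1, had a log2FC of -0.32 (adjusted p = 0.0699 from limma, and 0.0333 without CAS 7). Galk1 was not called in the other 15 fits that left out a library, nor on the deposited scale (-0.24, adjusted p = 0.177 from limma). In the pentose phosphate pathway Pgd had -0.50 (adjusted p = 0.212 from limma) and Taldo1 -0.17 (adjusted p = 0.246). Of 17 transcription factors and coactivators known to act on glucose genes 0 were called, with Foxa3 at -0.35 (adjusted p = 0.166 from limma), Srebf1 at 0.23 (adjusted p = 0.372) and Foxa1 at 0.21 (adjusted p = 0.397).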

How the data were processed

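RNA from 16 rat livers was sequenced, 1 library per rat. The deposited signal values are normalized counts, which the authors made from gene-level read counts with a size factor per library as DESeq2 does, and whole reads were recovered from them (100% whole within 0.05). The authors' own columns of that table, log2 fold changes, a Wald score and p-values, were not used. The submitters' processing notes name Rnor_6.0, FastQC and DESeq2, whereas the methods of the paper give CLC Genomics Workbench 8, rat assembly version 4, and RPM on a quantile-normalized log2 scale. The paper gives 100-base paired-end reads and the series text 50-base single-end reads, and which made these counts is not given in the sources used here.

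The 8004 genes that reached a value of 10 in 8 or more of the 16 libraries were tested, two-sided, with limma (trend and robust) on quantile-normalized log2(value + 1), with the Benjamini-Hochberg adjustment. A log2 fold change on this scale understates the change of low genes. The steps were tested on simulated data. The members and lists were chosen with earlier results of these data known. Named genes were the 7, each list gene called, up to 3 more per list by p, and the most alike genes, though some results are not reported here. Ratios and ranges use the deposited values, and correlations the tested scale, with 100000 permutations within diets or exact permutation within a diet. The 11 alternatives were no quantile normalization (deposited scale), upper-quartile scaling, a pseudocount of 0.5 or 8, no filter or a filter at 50, edgeR (quasi-likelihood, TMM) and DESeq2 on whole reads, the replicate number as a block, library weights, and libraries 2 and 8 of each diet left out. Each library was also left out in turn, and these fits were added for Fbp1 on the deposited scale after seeing the data. The labels give a CAS and an SPI library of the same number a common lane code, with numbers 2 and 7 sharing lane 7, but same-numbered libraries did not deviate together (correlations -0.0950 to 0.0682, mean -0.0380, and 0 of 8 best with its own number), so the block is an alternative. The software was R 4.3.3, limma 3.58.1, edgeR 4.0.16, DESeq2 1.42.0 and statmod 1.5.0.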

Additional observations from a re-analysis of the deposited data

How the results depend on the processing

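Gckr, Khk and Pfkfb1 kept their direction and stayed uncalled in all 11 alternatives and in all 16 fits that left out a library, although the size moved. For Gckr it lay between -0.32 (without the libraries numbered 2 and 8) and -0.04 (with upper-quartile scaling). For Pfkfb1 it lay between 0.20 (without SPI 7) and 0.51 (without SPI 1). Slc2a2 and Fbp1 kept their direction in all of these, with Fbp1 called on the deposited scale, with upper-quartile scaling, with edgeR and with DESeq2, so that 1 of the 7 genes was higher there against 0. Leaving out a library gave 0 to 1 of the 7 lower (Slc2a2) and 0 higher. Pck1 turned to 0.22 on the deposited scale, 0.24 with upper-quartile scaling, 0.28 with edgeR and DESeq2, 0.0498 with library weights and 0.16 without the libraries numbered 2 and 8, and ranged from -0.11 to 0.14 when a library was left out. G6pc ranged from -0.0546 to 0.23 when a library was left out. Slc2a1, another hexose transporter, had a log2 fold change of -0.02, which was 0.000664 with edgeR and ranged from -0.15 to 0.12 when a library was left out.

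Over all genes, 158 higher and 232 lower became 310 and 364 with DESeq2, 256 and 208 with upper-quartile scaling, and 47 and 69 without the libraries numbered 2 and 8, and ranged from 99 to 203 and from 132 to 288 when a library was left out. The share of calls that were higher was 40.5%, and 55.2% with upper-quartile scaling. With the replicate number as a block, 97 were higher and 149 lower, and 1 pathway gene was higher and 0 lower against 2 and 1, since Pck2 and Gpi were lost and Mdh1 was kept. No call among the 7 changed with the block. The pathway genes numbered 3 higher on the deposited scale, with upper-quartile scaling and with DESeq2, and 1 higher with library weights and without the libraries numbered 2 and 8. They numbered 0 lower on the deposited scale, with upper-quartile scaling, with edgeR, with DESeq2 and without the libraries numbered 2 and 8, and 2 lower with a filter at 50 and with library weights. Leaving out a library gave 1 to 2 higher and 0 to 4 lower, the 4 without CAS 7. The cause of these changes was not tested. Depth limits Pfkfb1, with 44 to 249 reads per library, and genes with lower counts such as Pfkl and Pfkm.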
